A study of Mus musculus with 12 samples.

Results

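The genes described here encode secreted ligands of the TGF-beta superfamily and the proteins that hold them back: the ligands Tgfb1, Tgfb2, Tgfb3 and Inhba, the antagonists Grem1 and Fst, and the latent TGF-beta binding proteins Ltbp1, Ltbp2 and Ltbp3. They were taken by name from 10 named genes, and 9 of the 10 had a row in both complete expression tables, among 13768 genes listed in either table and 12590 listed in both. Bmp4 was not analysed here. The study sequenced RNA from C2C12, a mouse muscle precursor line able to form myotubes, to compare the transcripts held on polysomes with those of the whole cell, with and without Ddx27. Ddx27 encodes a nucleolar RNA helicase with a part in ribosomal RNA processing. The 4 groups were polysomal RNA of Ddx27-/- cells (3 libraries), total cellular RNA of Ddx27-/- cells (2 libraries analysed of 3 labelled), polysomal RNA of wildtype cells (3 libraries) and total cellular RNA of wildtype cells (3 libraries). Polysomal RNA came from purified polysomes, which hold mRNAs that carry several ribosomes, and all groups are C2C12. No agent, time or clone is given for any group, and no label says that a group's libraries are separate cultures, so the p-values measure only the spread between these libraries, which may be technical.

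TGF-beta ligands are secreted as latent complexes: the mature dimer stays bound to its propeptide, and an Ltbp protein ties that complex to the extracellular matrix until integrins, thrombospondin or proteases release it. Ltbp1 and Ltbp3 bind the latent complex covalently, while Ltbp2 binds fibrillin and does not hold latent TGF-beta. Activin A, a dimer of the subunit encoded by Inhba, is neutralised by follistatin (Fst), and gremlin 1 (Grem1) binds and blocks BMP ligands. In muscle precursor cells, TGF-beta and activin A hold back differentiation, and BMP signals raise the Id genes.

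Each level is a normalised read count, with the authors' scaling done per genotype. Fold changes are limma's log2 estimates on log2 of the value plus 1, with standard error (SE), and a gene is said to have risen or fallen only where the Benjamini-Hochberg adjusted p was under 0.05 over all genes tested. Knockout and wild-type libraries were compared after all 11 were put on a common scale. The libraries held 13683674 to 27347878 reads in listed genes, and 3 reads, the upper limit that a count of 0 allows, correspond to 0.0989 to 0.257 normalised read counts, which covers counting error only. Ddx27 itself had 31.3 to 52.6 normalised read counts in the 5 knockout libraries and 139 to 215 in the 6 wild-type libraries, so its transcript was reduced and not lost. All 5 myoblast markers were listed, but the defining marker Myod1 was at 0 to 0.0861 in knockout polysomal RNA, at 0.363 to 1.13 in knockout total RNA, at 69.7 to 95.5 in wild-type polysomal RNA and at 137 to 177 in wild-type total RNA. Of the 5, Myod1, Des, Itga7 and Cdh15 fell and Myf5 rose (107 to 123 in knockout and 58.0 to 70.5 in wild-type total RNA) in knockout against wild-type total RNA. Their summed level was 461 to 539 in knockout polysomal RNA, 1032 and 1205 in knockout total RNA, 886 to 1041 in wild-type polysomal RNA and 2918 to 4014 in wild-type total RNA. No endothelial, adipocyte or osteoblast marker was listed.

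Some features of the libraries moved with these contrasts or varied within groups, and their part in the results was tested only where a value without them is given. The log2 level changed with each doubling of gene length by -0.20, 0.22 and 0.13 in the knockout polysomal libraries and by -0.29, -0.67 and -0.17 in the wild-type polysomal libraries, each relative to the total libraries of its genotype. On the same measure the knockout total libraries lay at 0.15 and -0.15 and the wild-type total libraries at -0.015 to 0.011. In the knockout this trend therefore did not separate the fractions. Gene models that collect ribosomal RNA sequence, 3 of them chosen after their values were seen, took 22.9%, 32.4% and 0.381% of the reads in knockout polysomal replicates 1 to 3, 5.85%, 14.4% and 0.663% in wild-type polysomal replicates 1 to 3, and 0.0532% to 0.134% in total libraries. A list of 10 such models, of which 6 were listed in the knockout table and 5 in the wild-type table, took 2.71%, 3.99% and 0.0884% in knockout polysomal, 0.899%, 1.89% and 0.201% in wild-type polysomal and 0.0133% to 0.0318% in total libraries. The summed level of the 6 differentiated muscle markers was 139 to 155 in knockout total RNA and 293, 295 and 768 in wild-type total replicates 1 to 3, so wild-type total replicate 3 stood apart. Of 5 fibroblast markers, 2 were listed in the knockout table and 3 in the wild-type table, with a summed level of 7.28 to 11.2 in knockout polysomal RNA, 15.3 and 19.9 in knockout total RNA, 5.16 to 11.99 in wild-type polysomal RNA and 37.7 to 58.5 in wild-type total RNA. Dcn fell in knockout against wild-type total RNA (-0.79 on the log2 scale) and in polysomal against total RNA of both genotypes (-2.19 in the knockout, -3.20 in the wild type), and Cd248 (-2.01) and Pdgfra (-1.58) fell in wild-type polysomal RNA. Of 3 leukocyte markers only Cd68 was listed, at 3.17 to 3.47 in knockout polysomal RNA, 3.495 and 4.937 in knockout total RNA, 0.913 to 3.06 in wild-type polysomal RNA and 1.88 to 2.86 in wild-type total RNA, and it rose in knockout total RNA (0.75).

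**Figure D1:**
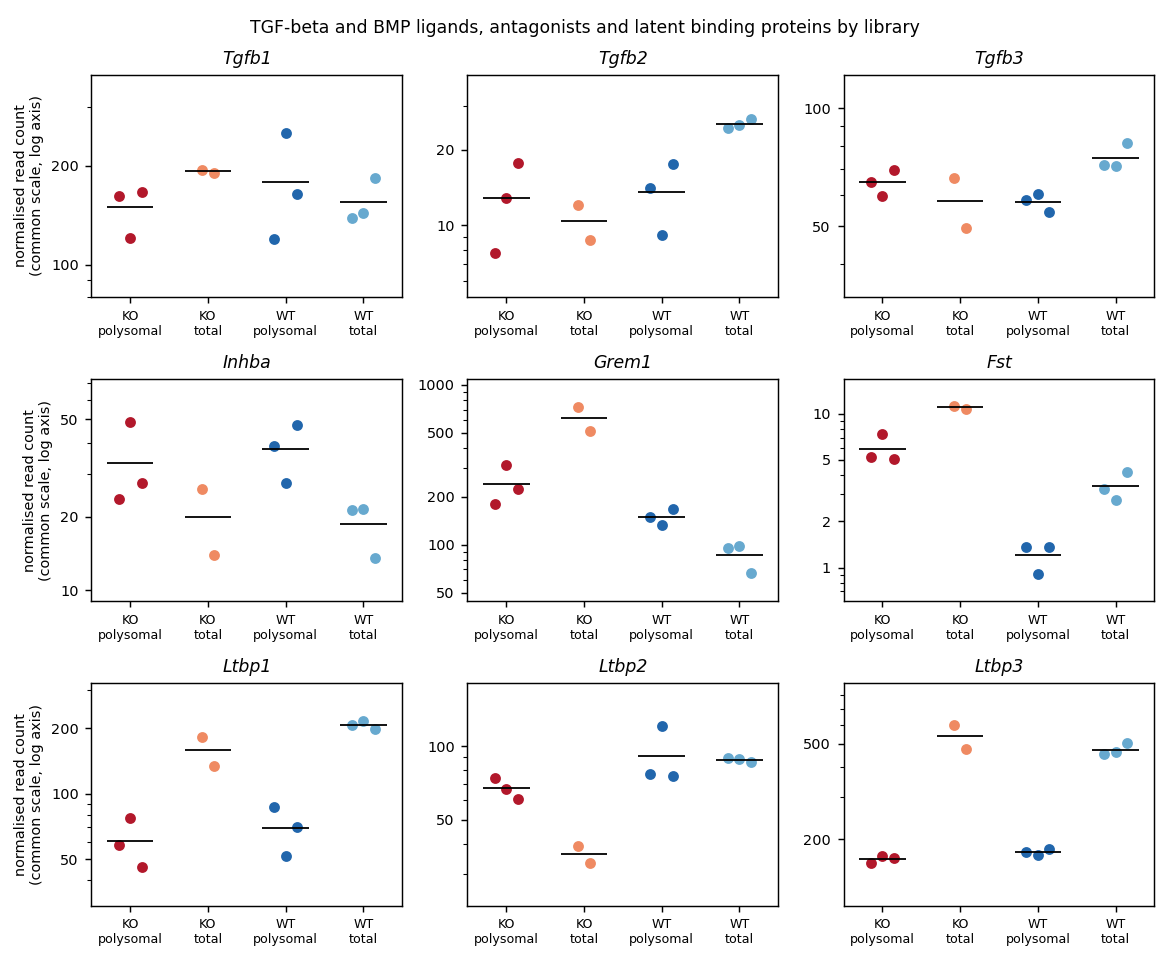
Normalised read count of each of the 9 genes on the common scale (vertical axis, log scale) in every library, grouped as knockout polysomal, knockout total, wild-type polysomal and wild-type total; points are libraries and bars are group means. Grem1 is highest in the 2 knockout total libraries, Ltbp1 and Ltbp3 are lower in polysomal than in total RNA in both genotypes, and Ltbp2 is lowest in knockout total RNA.

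In total RNA, these genes differed in both directions between knockout and wild-type cells. Myod1 differed between the same libraries as well (log2 fold change -6.38), and its part in these changes was not tested. The antagonists Grem1 and Fst rose, by 7.14-fold and 2.75-fold on the fitted scale, while the ligand Tgfb2 and the matrix protein gene Ltbp2 fell, and Tgfb1, Tgfb3, Inhba, Ltbp1 and Ltbp3 did not pass the test. In polysomal RNA only Fst passed. In RNA from whole cultures, fewer cells of a kind and less RNA per cell cannot be told apart. Polysomal RNA held less Ltbp1 and Ltbp3 than total RNA in both genotypes. Grem1 went opposite ways in the genotypes, and its difference between them passed the test. The knockout value on its own missed the threshold (limma adjusted p = 0.0529). The calls on the wild-type value and on the difference were lost without most single libraries.

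In knockout against wild-type total RNA, 4 of the 9 genes passed the test, 2 higher and 2 lower, where 36.8% of the 11993 genes tested passed (17.9% higher and 18.9% lower), so the count of 4 is near the background. The groups did not overlap for 7 of the 9, against 65.2% of all genes. The median log2 fold change was 0.05 over the 9 genes and -0.02 over all genes. In polysomal RNA 1 of the 9 passed, where 2.57% of 12184 genes did (1.62% higher and 0.952% lower), and the groups did not overlap for 4 of the 9, against 23.7% of all genes. The medians there were -0.10 over the 9 genes and -0.0041 over all genes.

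**Figure D2:**
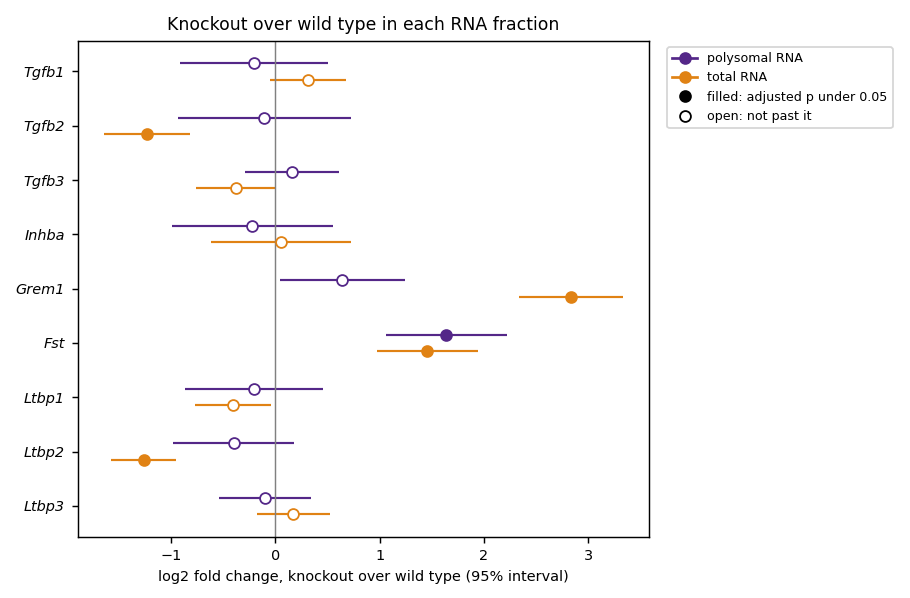
Log2 fold change of knockout over wild type with its 95% interval for each gene, in polysomal and in total RNA; filled points have an adjusted p under 0.05 (limma). Grem1 lies at 2.84 in total RNA and 0.64 in polysomal RNA, and Fst is past the threshold in both fractions at 1.64 and 1.46.

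For polysomal against total RNA, 2 of the 9 genes fell in the knockout, where 2.76% of 12070 genes passed (0.911% higher and 1.85% lower). In the wild type 1 rose and 3 fell, where 22.7% of 12380 genes passed (8.89% higher and 13.8% lower). The groups did not overlap for 6 of the 9 in the knockout (40.6% of all genes) and for 7 of the 9 in the wild type (50.9% of all genes). The median log2 fold change of the 9 genes was -0.33 in the knockout and -0.37 in the wild type, with medians over all genes of 0.04 and -0.02. The difference between the genotypes' contrasts passed for 1 of the 9 genes, in the lower direction. Of all 12474 genes tested, 0.265% passed (0.224% higher and 0.0401% lower). The median difference was 0.23 over the 9 genes and 0.09 over all genes.

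**Figure D3:**
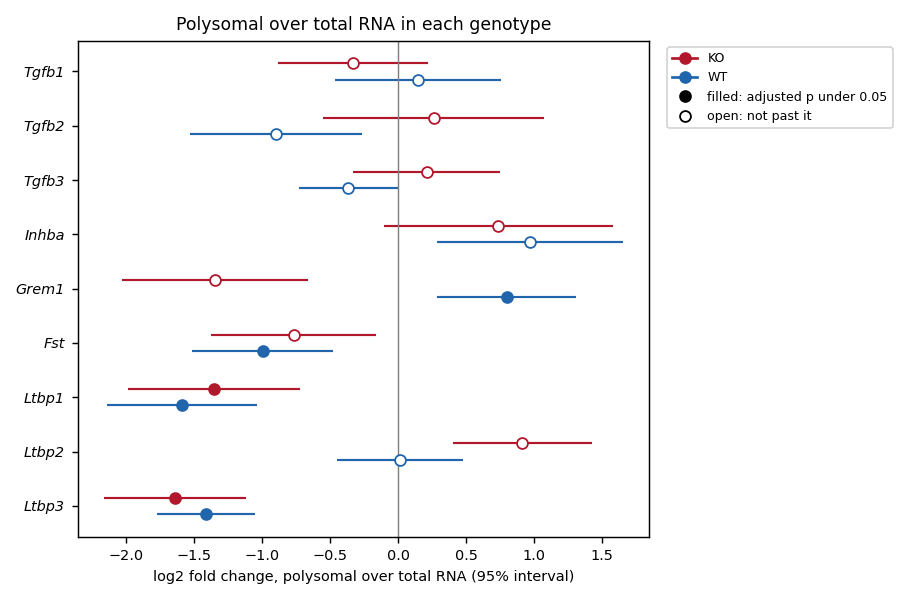
Polysomal-over-total log2 fold change with its 95% interval for each gene, in knockout and wild-type cells; filled points have an adjusted p under 0.05 (limma). Ltbp1 and Ltbp3 lie below 0 in both genotypes, and Grem1 lies at -1.35 in the knockout and 0.80 in the wild type with intervals that do not overlap.

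Among the ligands, Tgfb1 (chromosome 7, 25687002 to 25705077 in GRCm38.p6, the build also called mm10) had the highest level per kilobase in every group and passed no test. It had 157, 117 and 166 normalised read counts in knockout polysomal RNA and 185 and 182 in knockout total RNA. It had 128, 247 and 174 in wild-type polysomal RNA and 144, 149 and 190 in wild-type total RNA. The knockout polysomal libraries all lay below the knockout total libraries, the wild-type fractions overlapped, and wild-type polysomal replicate 2 was the highest of all. Polysomal over total RNA gave a log2 fold change of -0.33 ± 0.24 (SE) in the knockout and 0.14 ± 0.26 in the wild type. In total RNA, knockout over wild type was 0.32 ± 0.16 (limma adjusted p = 0.142), and in polysomal RNA it was -0.20 ± 0.31 (0.800), with an interval of -0.91 to 0.51.

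Tgfb2 (chromosome 1, 186622787 to 186709697) had the lowest level per kilobase of the TGF-beta ligands and fell in knockout total RNA. It had 7.55, 12.5 and 17.7 normalised read counts in knockout polysomal RNA and 11.5 and 8.30 in knockout total RNA. It had 15.1, 8.94 and 18.7 in wild-type polysomal RNA and 25.5, 26.1 and 27.4 in wild-type total RNA. Both knockout total libraries lay far below all wild-type total libraries, and the polysomal libraries of the genotypes overlapped. In total RNA the log2 fold change of knockout over wild type was -1.23 ± 0.18 (limma adjusted p = 0.00289), and in polysomal RNA it was -0.10 ± 0.36 (0.921). Polysomal over total RNA was 0.26 ± 0.36 in the knockout (0.702) and -0.90 ± 0.27 in the wild type (0.0504), just short of the threshold, and edgeR on the recovered whole reads put the wild-type value at -0.87 with an adjusted p of 0.0474. The authors' deposited wild-type value was -0.88 with an FDR of 0.0294. The difference between the contrasts of the genotypes, 1.16 ± 0.47, did not pass (0.202).

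Tgfb3 (chromosome 12, 86056743 to 86079041), the third TGF-beta, passed no test. It had 63.1, 57.9 and 69.3 normalised read counts in knockout polysomal RNA and 63.2 and 47.1 in knockout total RNA, against 62.3, 59.3 and 57.9 in wild-type polysomal RNA and 74.8, 74.2 and 83.9 in wild-type total RNA. The wild-type total libraries were the highest and overlapped with neither wild-type polysomal nor knockout total libraries. Set against total RNA, polysomal RNA gave a log2 fold change of 0.21 ± 0.24 in the knockout (limma adjusted p = 0.638) and -0.37 ± 0.16 in the wild type (0.124). In total RNA, knockout over wild type was -0.38 ± 0.16 (0.103), with an interval of -0.76 to 0.0009, and became -0.59 without knockout total replicate 1, where it passed (0.00441).

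Inhba (chromosome 13, 16004256 to 16031609), the activin A subunit gene, had higher means in polysomal than in total RNA in both genotypes, without passing the test in either. It had 23.1, 47.2 and 27.3 normalised read counts in knockout polysomal RNA and 24.7 and 13.4 in knockout total RNA. It had 41.6, 26.9 and 50.3 in wild-type polysomal RNA and 22.2, 22.3 and 14.0 in wild-type total RNA. The fractions overlapped in the knockout and did not in the wild type. Polysomal RNA differed from total RNA by a log2 fold change of 0.74 ± 0.37 in the knockout (limma adjusted p = 0.276) and 0.97 ± 0.29 in the wild type (0.0505), where edgeR gave 1.04 with an adjusted p of 0.0352. Knockout over wild type was 0.05 ± 0.29 in total RNA, with an interval of -0.62 to 0.72, and -0.22 ± 0.33 in polysomal RNA. Without wild-type polysomal replicate 2, the wild-type value was 1.22 and passed (0.00112). The authors' deposited wild-type value was 1.03 with an FDR of 0.0110.

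Once levels were divided by gene length, Tgfb1 made up most of the summed level of the 3 TGF-beta ligands in every library. It took 69.9% to 75.2% of the sum in knockout polysomal RNA, 77.4% and 81.9% in knockout total RNA, 69.9% to 83.3% in wild-type polysomal RNA and 67.2% to 70.8% in wild-type total RNA. Tgfb2 made up 2.02% and 2.61% in knockout total RNA and 5.54% to 6.44% in wild-type total RNA. In polysomal RNA the Tgfb2 share was 1.95% to 4.19% in the knockout and 1.63% to 4.45% in the wild type, so there the genotypes overlapped.

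**Figure D4:**
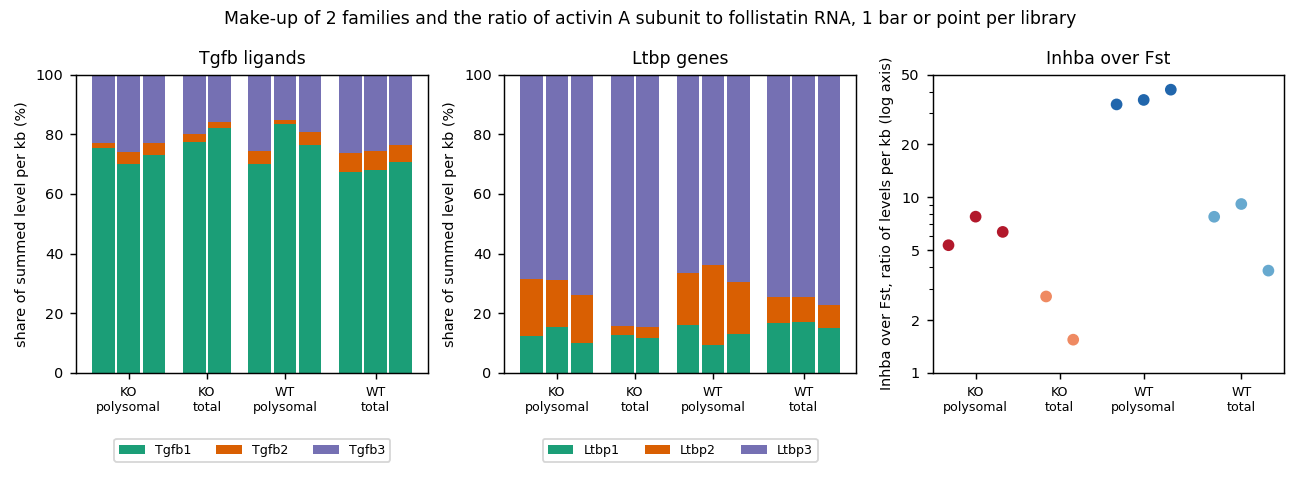
Left and middle, share of each gene in the summed level per kilobase (percent) of the 3 Tgfb ligands and the 3 Ltbp genes, 1 bar per library; right, ratio of the Inhba to the Fst level per kilobase (log axis), 1 point per library. The Ltbp2 share is 3.28% and 3.56% in knockout total RNA and 7.89% to 8.78% in wild-type total RNA, and the Inhba to Fst ratio is highest in wild-type polysomal RNA.

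Grem1, the secreted BMP antagonist, showed the largest change of the 9 genes. It lies on chromosome 2 at 113748675 to 113758648, and its RefSeq promoter, 250 bases before to 50 bases after the start on the minus strand at chr2:113758599-113758898, is shown because the gene rose so far in total RNA. Capitals mark CAGAC, the core of the Smad-binding element, on either strand (GTCTG on the other).

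Grem1: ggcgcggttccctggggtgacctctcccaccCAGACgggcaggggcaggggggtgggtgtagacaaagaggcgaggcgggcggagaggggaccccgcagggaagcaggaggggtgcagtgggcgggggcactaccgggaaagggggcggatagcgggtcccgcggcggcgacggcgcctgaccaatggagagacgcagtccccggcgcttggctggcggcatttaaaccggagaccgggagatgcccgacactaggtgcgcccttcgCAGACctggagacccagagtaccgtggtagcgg

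The Grem1 window holds 2 matches, and has a GC content of 70.7%, against a median of 53.0% over all promoters of this length. A CAGAC match on either strand was present in 49.5% of 32544 RefSeq promoters, so a match is common. A search of the same strands found no TATAAA, which 13.6% of promoters hold, no CANNTG, the E-box, which 72.3% hold, and 1 GGCGCC, which 11.9% hold.

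Grem1 had 694 and 491 normalised read counts in knockout total RNA and 98.6, 102 and 68.3 in wild-type total RNA. It had 176, 304 and 223 in knockout polysomal RNA and 160, 130 and 177 in wild-type polysomal RNA. Every knockout total library lay several times above every wild-type total library, whereas the lowest knockout polysomal library was only just above the highest wild-type polysomal one, at 180 and 166 on the common scale. On the common scale the total RNA means were 622 ± 151 in the knockout (SD, n = 2) and 86.2 ± 17.4 in the wild type (SD, n = 3). Knockout over wild type gave a log2 fold change of 2.84 ± 0.22 in total RNA (limma adjusted p = 0.000179), above 99.9% of all genes tested, and 0.64 ± 0.26 in polysomal RNA (0.279), with an interval of 0.05 to 1.24. In total RNA the call held whichever of the 5 libraries was left out, with a log2 fold change of 2.59 to 3.08.

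Within each genotype, Grem1 took opposite sides of total RNA. All knockout polysomal libraries were below both knockout total libraries, and all wild-type polysomal libraries were above all wild-type total libraries. Polysomal over total RNA gave a log2 fold change of -1.35 ± 0.30 in the knockout (limma adjusted p = 0.0529), which missed the threshold, and 0.80 ± 0.22 in the wild type (0.0386), which passed. The knockout value passed with no filter on low values (0.0498), with the trend on gene length removed (0.00737), and without knockout polysomal replicate 1 (0.0221) or 2 (0.0420), and had an adjusted p of 0.188 to 0.220 without each of the other 3 libraries. The difference between the contrasts was -2.15 ± 0.37 (0.0452), with an interval of -2.97 to -1.33. The authors' deposited table gives Grem1 a log2 fold change of -1.34 with an FDR of 0.00301 in the knockout and 0.80 with an FDR of 0.0269 in the wild type. The call on the difference was lost without any 1 of 9 of the 11 libraries, with adjusted p between 0.0577 and 0.205 and a log2 difference of -2.40 to -1.90, and was kept only without knockout polysomal replicate 1 (0.0443) or wild-type polysomal replicate 2 (0.0193). The wild-type rise was likewise kept only without wild-type polysomal replicate 2 (0.00183) and lost without each of the other 5 libraries, where adjusted p ran from 0.0752 to 0.152.

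Fst (chromosome 13, 114452262 to 114458989), which encodes the activin antagonist follistatin, was scarce and rose in the knockout in both fractions. It had 10.7 and 10.2 normalised read counts in knockout total RNA and 3.38, 2.87 and 4.31 in wild-type total RNA. It had 5.10, 7.19 and 5.08 in knockout polysomal RNA and 1.45, 0.886 and 1.45 in wild-type polysomal RNA, where the values rest on 35, 11 and 34 reads. The genotypes did not overlap in either fraction. The knockout differed from the wild type by a log2 fold change of 1.46 ± 0.21 in total RNA (limma adjusted p = 0.00263) and 1.64 ± 0.25 in polysomal RNA (0.0166). With edgeR on whole reads, which does not add 1 to low values, these were 1.72 and 2.27.

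Fst was also lower in polysomal than in total RNA in every library of both genotypes. The log2 fold change was -0.77 ± 0.27 in the knockout, which did not pass (limma adjusted p = 0.143), and -0.997 ± 0.22 in the wild type (0.0201), where edgeR gave -1.43. The difference between the contrasts was 0.23 ± 0.33 (0.687). The total RNA call held without each of the 5 libraries, but the polysomal call was kept only without wild-type polysomal replicate 2 (0.0149) and lost without each of the other 5, with adjusted p of 0.0572 to 0.117. The wild-type fall in polysomal RNA was lost without wild-type total replicate 1, 2 or 3, with adjusted p of 0.0747 to 0.101.

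The ratio of Inhba to Fst level per kilobase followed from these values. It was 5.33, 7.76 and 6.35 in knockout polysomal RNA and 2.72 and 1.55 in knockout total RNA. It was 33.8, 35.8 and 41.0 in wild-type polysomal RNA and 7.75, 9.15 and 3.82 in wild-type total RNA. The genotypes were separate in both fractions, and wild-type polysomal RNA had by far the highest ratios. Wild-type total replicate 3, which had the high level of differentiated muscle markers, had the lowest ratio of its group.

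The latent binding protein genes fell into 2 patterns: Ltbp1 and Ltbp3 were lower in polysomal RNA in both genotypes, while Ltbp2 passed in neither. Their RefSeq promoters in GRCm38.p6 are shown together so that the pair that moved alike can be compared with the third: Ltbp1 on the plus strand at chr17:75005279-75005578, Ltbp3 on the plus strand at chr19:5740650-5740949 and Ltbp2 on the minus strand at chr12:84876442-84876741. Capitals again mark CAGAC or its complement GTCTG.

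Ltbp1: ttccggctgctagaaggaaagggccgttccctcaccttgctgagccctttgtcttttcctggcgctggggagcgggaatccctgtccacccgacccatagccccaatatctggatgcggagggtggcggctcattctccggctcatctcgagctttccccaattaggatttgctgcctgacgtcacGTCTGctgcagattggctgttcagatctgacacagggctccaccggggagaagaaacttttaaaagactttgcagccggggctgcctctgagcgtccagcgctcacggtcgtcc
Ltbp3: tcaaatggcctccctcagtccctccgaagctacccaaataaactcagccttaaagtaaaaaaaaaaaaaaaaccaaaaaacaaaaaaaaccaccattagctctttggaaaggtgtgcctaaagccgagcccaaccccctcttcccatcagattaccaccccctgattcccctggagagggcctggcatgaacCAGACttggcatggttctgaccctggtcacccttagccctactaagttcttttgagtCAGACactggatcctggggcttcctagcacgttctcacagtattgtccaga
Ltbp2: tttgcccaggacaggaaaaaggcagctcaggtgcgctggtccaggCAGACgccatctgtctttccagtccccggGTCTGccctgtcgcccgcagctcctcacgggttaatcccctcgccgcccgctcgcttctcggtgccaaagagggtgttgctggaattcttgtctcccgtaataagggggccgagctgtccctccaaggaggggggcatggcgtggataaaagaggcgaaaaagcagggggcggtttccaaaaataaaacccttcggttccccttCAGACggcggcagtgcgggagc

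Ltbp1 has 1 match in this window and 2 in the window of a second annotated start at chr17:75178531-75178830, Ltbp3 has 2 and Ltbp2 has 3. Their GC contents are 58.7%, 48.0% and 61.0%. RefSeq promoters were matched for 7 of the 9 genes, all but Tgfb3 and Fst. Of the others, Tgfb2 holds 2 CAGAC matches, and Tgfb1 and Inhba hold none in this window.

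Ltbp1 (chromosome 17, 75005480 to 75392512), whose protein anchors latent TGF-beta in the matrix, fell in polysomal RNA of both genotypes. It had 56.4, 75.0 and 45.6 normalised read counts in knockout polysomal RNA and 174 and 128 in knockout total RNA, against 93.1, 50.7 and 74.7 in wild-type polysomal RNA and 217, 225 and 205 in wild-type total RNA. Every polysomal library lay below every total library, and in polysomal RNA the genotypes overlapped. Set against total RNA, polysomal RNA gave a log2 fold change of -1.36 ± 0.28 in the knockout (limma adjusted p = 0.0425) and -1.59 ± 0.24 in the wild type (0.00573), and the difference between them was 0.24 ± 0.37 (0.717), with an interval of -0.58 to 1.06. Ltbp1 is the longest of the 9 gene models at 10512 bases, and with the trend on gene length removed the wild-type value was -0.99, still past the threshold (0.00628). Knockout over wild type was -0.40 ± 0.16 in total RNA (0.0784) and -0.20 ± 0.29 in polysomal RNA (0.782).

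Ltbp3 (chromosome 19, 5740900 to 5758536), whose protein also binds latent TGF-beta, fell in polysomal RNA of both genotypes as well. It had 155, 166 and 166 normalised read counts in knockout polysomal RNA and 571 and 454 in knockout total RNA, against 189, 169 and 194 in wild-type polysomal RNA and 471, 481 and 520 in wild-type total RNA. The fractions were far apart in both genotypes, and the lowest total library was more than 2 times the highest polysomal one. Polysomal RNA differed from total RNA by a log2 fold change of -1.64 ± 0.23 in the knockout (limma adjusted p = 0.0143) and -1.41 ± 0.15 in the wild type (0.0022), and the difference between them was -0.23 ± 0.24 (0.565). Knockout over wild type was 0.18 ± 0.15 in total RNA, with an interval of -0.17 to 0.52, and -0.10 ± 0.19 in polysomal RNA.

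The wild-type calls for Ltbp1 and Ltbp3 held without each of the 6 libraries. Both knockout calls were lost without knockout total replicate 1 or 2 or knockout polysomal replicate 3, with adjusted p of 0.175 to 0.196 for Ltbp1 and 0.0805 to 0.130 for Ltbp3. In those 3 fits the log2 fold change of Ltbp1 was -1.14, -1.57 and -1.19, and that of Ltbp3 ran from -1.81 to -1.48.

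Ltbp2 (chromosome 12, 84783212 to 84876558), which encodes a fibrillin-binding matrix protein, fell in knockout total RNA and did not pass in polysomal RNA. It had 37.1 and 31.9 normalised read counts in knockout total RNA and 92.9, 91.8 and 88.9 in wild-type total RNA. It had 72.1, 64.6 and 60.8 in knockout polysomal RNA and 82.0, 118 and 80.0 in wild-type polysomal RNA. Both fractions separated the genotypes, but the gap was narrow in polysomal RNA. Knockout over wild type gave a log2 fold change of -1.26 ± 0.14 in total RNA (limma adjusted p = 0.000878) and -0.40 ± 0.25 in polysomal RNA (0.497). Polysomal over total RNA was 0.91 ± 0.23 in the knockout (0.0692) and 0.01 ± 0.20 in the wild type (0.973), and the difference between these, 0.90 ± 0.28, did not pass (0.131). The authors' deposited table lists the knockout value as 0.93 with an FDR of 0.0317.

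Without wild-type polysomal replicate 2 the Ltbp2 difference was 1.08 and passed (0.032), and with the trend on gene length removed it was 0.32 (0.736). Among the 3 Ltbp genes, Ltbp2 made up 16.0% to 19.1% of the summed level per kilobase in knockout polysomal RNA, 3.28% and 3.56% in knockout total RNA, 17.2% to 26.7% in wild-type polysomal RNA and 7.89% to 8.78% in wild-type total RNA. Ltbp3 made up the largest share in every library, from 63.9% to 84.7%. Ltbp2 overlaps the non-coding gene D030025P21Rik in the annotation, and no source used here says whether reads were counted by strand.

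Per kilobase, the order of the 9 genes differed between groups. In knockout polysomal RNA Tgfb1 (58.7 ± 9.83 normalised read counts per kilobase, SD, n = 3) and Grem1 (57.7 ± 16.4) led and overlapped with each other. In knockout total RNA Grem1 led at 150.0 ± 36.3 (n = 2), followed by Ltbp3 at 104 ± 16.8 and Tgfb1 at 75.3 ± 0.954, each separate from the next. In wild-type polysomal RNA Tgfb1 led at 69.9 ± 26.3, above Grem1 at 36.0 ± 4.08 and Ltbp3 at 34.3 ± 0.905, which overlapped. In wild-type total RNA Ltbp3 led at 91.6 ± 5.33 and Tgfb1 followed at 60.9 ± 9.80, while Tgfb3, Grem1 and Ltbp1, between 22.1 and 19.7, overlapped with their neighbours. Fst was last in 3 of the groups and Tgfb2 was last in knockout total RNA.

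Over the 11 libraries, Ltbp1 and Ltbp3 varied most alike among all pairs of the 9 genes, with a Pearson r of 0.93 on the log2 common scale. Grem1 and Fst had an r of 0.70, and Tgfb2 and Tgfb3 of 0.66. Ltbp2 ran against Grem1 (-0.87) and against Fst (-0.82). These are descriptions: the libraries share groups and depth, so a difference between 2 groups is enough to give a high value. Of 9386 genes compared, the closest in pattern to Grem1 were Ippk (0.92), Cited2 (0.91) and Aagab (0.90), and those closest to Ltbp2 were Cln8 (0.97), Zswim4 (0.96) and Glipr2 (0.96). The closest to Ltbp1 were Ctr9 (0.99), Eif4g1 (0.99) and Ganab (0.98), and to Ltbp3 Fgfr1 (0.99), Skiv2l (0.98) and Uba1 (0.98). Fst was closest to Car5b (0.97), Ndrg4 (0.97) and Rin2 (0.95), and Inhba to Narg2, Zfp131 and Mis12 (each 0.93). Tgfb1 was closest to Thap4 (0.95), Tecr (0.93) and Capzb (0.92), Tgfb2 to Elf4 (0.97), Serinc5 (0.97) and Bcr (0.96), and Tgfb3 to Prrc1, Ddr1 and Ctif (each 0.93).

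The rest of the pathway was read from 6 lists, which like the 9 genes were chosen with earlier results of these data known. In knockout against wild-type total RNA the BMP-responsive genes Id1 (log2 fold change 2.10 ± 0.24, limma adjusted p = 0.00109) and Id3 (1.34 ± 0.21, 0.00329) rose, while the TGF-beta target Timp3, a metalloproteinase inhibitor (-2.89 ± 0.15, 3.62e-05), fell. Of 15 targets tested, 6 rose and 6 fell, with a median of -0.03, where 17.9% of all genes rose and 18.9% fell. Atoh8 was also among those that rose most (1.22 ± 0.16). In polysomal RNA 4 of the 15 passed, all of them lower, namely Tagln (-2.03 ± 0.30), Timp3 (-1.96 ± 0.36), Ctgf (-1.65 ± 0.22) and Col1a1 (-1.16 ± 0.22), with a median of -0.44, where 2.57% of all genes passed and 0.952% fell. Tagln was called higher in total RNA (0.81 ± 0.26), the opposite direction to polysomal RNA, but neither call was firm. The total RNA call was lost with the authors' scaling and without wild-type total replicate 1, 2 or 3. The polysomal call was lost without knockout polysomal replicate 2 or 3 or wild-type polysomal replicate 1. Neither value changed sign in these fits.

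Genes of latency and activation were lower in knockout total RNA where they passed: 6 of 10 latency and activation genes tested fell, against 18.9% of all genes, with a median of -0.62 against -0.02 over all genes. Without wild-type total replicate 1, 2 or 3 the count was 1 of 9. The lowest were Fbn1, which encodes fibrillin 1, the microfibril to which Ltbp proteins attach (-2.00 ± 0.23, limma adjusted p = 0.00108), the integrin subunits Itgb6 (-1.73 ± 0.20) and Itgb8 (-0.79 ± 0.22), and the protease Furin (-0.65 ± 0.15). Itgb6 was at 0.660 to 0.769 in knockout and 4.78 to 5.20 in wild-type total RNA. It passed the filter on low values through the wild-type libraries alone, so it could only be called lower, yet it counts among the 6. Among other antagonists 3 of 6 tested passed, all higher, against 17.9% of all genes: Dand5, a Nodal and BMP antagonist (1.33 ± 0.23), Chrd, which encodes the BMP inhibitor chordin (1.16 ± 0.23), and Bmper (0.93 ± 0.22). Among 4 other ligands 2 passed, where 36.8% of all genes did: Inhbb, the activin B subunit, rose (1.43 ± 0.15) and the stress-induced Gdf15 fell (-1.05 ± 0.18).

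Receptors and Smads moved both ways in knockout total RNA, with 4 of 12 and 7 of 15 called, where 36.8% of all genes were, so the receptor count is near the background. Of 12 receptors, 1 rose and 3 fell: the BMP co-receptor Rgma (-1.38 ± 0.25), the BMP receptor Bmpr2 (-1.14 ± 0.30) and the activin receptor Acvr1b (-1.04 ± 0.22) fell and Eng, the co-receptor endoglin (0.95 ± 0.26), rose. Of 15 Smads and regulators, 3 rose and 4 fell, with the inhibitory Smad6 (1.46 ± 0.21) and the BMP-activated Smad9 (1.40 ± 0.26) highest and the ubiquitin ligase Smurf1 (-1.06 ± 0.16) and Pmepa1 (-0.65 ± 0.15) lowest. Without wild-type total replicate 2 or 3 the receptors called were 2 and 1, and the Smads and regulators called were 4, 3 and 3 without wild-type total replicate 1, 2 and 3 and 12 without knockout total replicate 1. In polysomal RNA no gene of the 5 lists other than targets passed, out of 6 ligands, 5 antagonists, 10 latency genes, 12 receptors and 15 Smads tested with limma; 7 of these 48 had an unadjusted p under 0.05, and edgeR called 0. Of the 34 list genes called in total RNA, 17 kept the call whichever library was left out, Timp3, Id1, Id3, Atoh8, Fbn1, Inhbb, Chrd, Dand5, Gdf15, Rgma, Smad6, Smad9 and Smurf1 among them, and Itgb6 was under the filter on low values without any wild-type total library. Furin (adjusted p up to 0.0680), Bmper (0.0717), Bmpr2 (0.0955), Acvr1b (0.0531) and Pmepa1 (0.0556) lost it without some wild-type total library, and Itgb8 (0.110) and Eng (0.0871) also without knockout total replicate 2. Of the 4 called in polysomal RNA, each lost the call without at least 3 of the 6 libraries.

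In wild-type polysomal RNA every latency gene that passed was lower and every target that passed was higher than in total RNA. Of 10 latency and activation genes, 7 fell, against 13.8% of all genes, with a median of -1.57 against -0.02 over all genes: Fbn1 (-2.29 ± 0.19, limma adjusted p = 0.00115), Thbs1, which encodes the latent TGF-beta activator thrombospondin 1 (-2.05 ± 0.29), Ltbp4 (-1.71 ± 0.20) and the integrin subunit Itgav (-1.63 ± 0.45) were lowest. The count was 3 without wild-type total replicate 1 or 2 and 4 without wild-type total replicate 3 or polysomal replicate 1, and the median was -1.05 with the trend on gene length removed and -1.03 without wild-type polysomal replicate 2. Of 15 targets, 6 rose, against 8.89% of all genes, with a median of 0.53, and 3 did without wild-type total replicate 3: Id1 (2.57 ± 0.42), Tagln (1.82 ± 0.24), Id2 (1.80 ± 0.19) and Id3 (1.77 ± 0.47) were highest. The inhibitory Smad7 rose by 2.32 ± 0.35 and Pmepa1 by 1.01 ± 0.26, and Smurf1 fell (-0.77 ± 0.17). They were the 3 calls among 15 Smads and regulators, a count near the 22.7% of all genes, and the list median was -0.29. Of 12 receptors 2 passed, where 22.7% of all genes did: the TGF-beta receptor Tgfbr2 (-1.24 ± 0.20) and Acvr1b (-0.75 ± 0.21) fell, and Inhbb (-1.42 ± 0.28), Chrd (-0.98 ± 0.20) and Nbl1 (-0.77 ± 0.19) were the calls among 4 ligands and 7 antagonists. Of these 21 list genes called in the wild type, 7 kept the call without each library in turn (Fbn1, Thbs1, Ltbp4, Smad7, Ctgf, Id2 and Tagln), and Chrd was under the filter on low values without any wild-type total library. Chrd was at 0.539 to 0.886 in wild-type polysomal RNA, so it passed that filter through total RNA alone and could only be called lower. The other 13 lost it without some library, among them Itgav (adjusted p up to 0.127), Id1 (0.0558), Id3 (0.141), Tgfbr2 (0.0572), Acvr1b (0.162), Inhbb (0.0731), Nbl1 (0.130), Pmepa1 (0.134) and Smurf1 (0.105).

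In the knockout 4 of these list genes passed in polysomal against total RNA, where 2.76% of all genes did: Ltbp4 (-1.96 ± 0.25, limma adjusted p = 0.0127), Inhbb (-1.60 ± 0.22, 0.0141), Chrd (-1.60 ± 0.31, 0.0344) and Smad7 (1.69 ± 0.26, 0.0199). None of 14 targets and none of 12 receptors passed, with medians of 0.60 and 0.15 against 0.04 over all genes; 7 of the targets and 2 of the receptors had an unadjusted p under 0.05, and edgeR called 0 of either. All 4 calls were lost without knockout total replicate 1 or 2 or knockout polysomal replicate 3, with adjusted p up to 0.158. The difference between the contrasts passed for Tagln (-2.80 ± 0.42, 0.0334) and Ctgf (-1.57 ± 0.26, 0.0344), against 0.265% of all genes, and for no gene of the other 5 lists, where 12 of 49 had an unadjusted p under 0.05 and edgeR called 0. Both were lost without 7 of the 11 libraries, with adjusted p up to 0.206 for Tagln and 0.270 for Ctgf.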

How the data were processed

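The authors deposited 1 complete table per genotype, whose main columns give a signal for each gene in each library: a normalised read count. Divided by 1 factor for each library, 100% of the values became whole reads within 0.001 reads, and the columns summed to 847338 to 1215073. The tools named are edgeR, HTSeq and STAR, with the build mm10, per the submitters' processing notes; their roles and versions are not given in the sources used here. The deposited tables also hold gene length, the authors' polysomal-over-total log2 fold change, and p-values with an FDR. Columns of the knockout table match sample titles by group only, so their numbers are those of table columns.

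Although CPM had been assumed in the design, the planned test still applied, because only the factor for each library differs. After a filter that kept genes reaching 1 in at least 3 fitted libraries, limma 3.58.1 (R 4.3.3) with a mean-variance trend was run on log2(value + 1). P-values were adjusted by Benjamini-Hochberg over every gene fitted, at a threshold of 0.05. Within each genotype, polysomal libraries were set against total libraries on the deposited values. Knockout was compared with wild type, within each fraction and as the difference between the contrasts, over genes listed in both tables. For the comparison within a fraction, all libraries were put on a common scale by the median of ratios.

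Alternatives were a pseudocount of 0.5, no filter, edgeR 4.0.16 quasi-likelihood on the recovered whole reads, removal of a trend on gene length, another scaling, the replicate number as a block, and each library left out. Named were the 9 genes, for each the 3 genes most like it in pattern with a mean of at least 10, and per list and comparison up to 4 called genes with the largest change. Some targets called the other way in knockout over wild-type total RNA were also named, picked after their values were seen. The 9 genes and the lists were chosen with earlier results of these data known. Promoter sequences and coordinates come from RefSeq on GRCm38.p6. Results for 2 further genes are not reported here.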

Additional observations from a re-analysis of the deposited data

Results flagged for a closer look

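The Grem1 response to fractionation differed between the genotypes: the knockout minus the wild-type polysomal-over-total log2 fold change was -2.15 ± 0.37 (SE, limma adjusted p = 0.0452), and it was the only one of the 9 genes for which a test of this difference passed. All 3 knockout polysomal libraries were below both knockout total libraries, and all 3 wild-type polysomal libraries were above all 3 wild-type total libraries. The call was lost without each of 9 of the 11 libraries (adjusted p 0.0577 to 0.205), among them both knockout total libraries, and the log2 difference then ran from -2.40 to -1.90.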

How the results depend on the processing

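The 4 calls in knockout over wild-type total RNA (Grem1, Fst, Tgfb2 and Ltbp2) held under all 5 other settings and without each of the 5 libraries, and 4 to 6 of the 9 genes then passed. Removing the trend on gene length moved the genes called to 1478 (333 otherwise) for knockout polysomal over total RNA, 1084 (313 otherwise) for knockout over wild type in polysomal RNA and 141 (33 otherwise) for the difference of contrasts, and the cause was not tested. It turned the sign of Inhba in knockout over wild-type polysomal RNA (0.088) and in the difference (0.028), and of Ltbp1 in the difference (-0.46). The authors' scaling turned Inhba in knockout over wild-type total RNA (-0.062). That scaling shifts the median of all genes by -0.11 in total RNA and -0.08 in polysomal RNA, and splits the genes called into 1596 higher and 3113 lower (2141 and 2272 on the common scale) in total RNA and 157 and 140 (197 and 116) in polysomal RNA. It also put Tgfb3 (-0.50, adjusted p = 0.0426) and Ltbp1 (-0.52, 0.033) past the threshold in total RNA. edgeR split the difference into 22 higher and 9 lower, against 28 and 5 with limma.

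Leaving out 1 library moved the counts widely, and where 1 knockout total library was left it was assumed to vary like the other groups. Genes called ran from 461 to 5777 for wild-type and from 5 to 1622 for knockout polysomal over total RNA, from 1574 to 7172 for knockout over wild-type total RNA, from 25 to 594 in polysomal RNA and from 0 to 355 for the difference. The lowest of these were without wild-type total replicate 3, knockout total replicate 1, wild-type total replicate 3, knockout polysomal replicate 3 and knockout total replicate 2, in that order. The highest were without wild-type polysomal replicate 2 for wild-type polysomal over total RNA, for knockout over wild-type polysomal RNA and for the difference, without knockout polysomal replicate 1 for knockout polysomal over total RNA, and without knockout total replicate 1 for knockout over wild-type total RNA. With all libraries the difference had 2604 genes at an unadjusted p under 0.05. Of the 9 genes, 2 to 7 were called in the wild type, 0 to 4 in the knockout, 0 to 1 in knockout over wild-type polysomal RNA and 0 to 2 for the difference. Signs turned for Tgfb1 (-0.10 to 0.37) and Ltbp2 (-0.17 to 0.11) in the wild type, Tgfb2 (-0.0054 to 0.56) in the knockout, Inhba (-0.37 to 0.48) in knockout over wild-type total RNA, Tgfb1 (-0.45 to 0.081) and Tgfb2 (-0.36 to 0.19) in polysomal RNA, and Inhba (-0.66 to 0.19) in the difference.

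With the replicate number as a block in the wild type, 1946 genes (703 higher, 1243 lower) were called, against 2806 without it, and Grem1 had an adjusted p of 0.0816. Same-numbered wild-type libraries correlated at 0.21, -0.22 and -0.07 in their deviations from group means, and differently numbered ones at -0.31 to 0.26. Deviations from a mean of 3 libraries also carry library differences such as the length trend. These correlations therefore cannot show whether the numbers pair the samples, which stays unknown. The knockout columns' numbers could not be tied to those of the labels. The pseudocount changed no call among the 9 genes. Depth limits Fst most, at 11 to 35 reads in wild-type polysomal RNA.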
